A study of Mus musculus with 16 samples.

Results

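Integrins are cell-surface receptors made of 1 α and 1 β subunit, through which leukocytes hold on to endothelium, complement, matrix and other cells. The β2 subunit, encoded by Itgb2, pairs with Itgam (CD11b) to form complement receptor 3, with Itgax (CD11c) and with Itgal (CD11a, the α subunit of LFA-1). The β1 subunit, encoded by Itgb1, pairs with Itga4, Itga6 and Itga9, and Itgav pairs with several β subunits, among them the one encoded by Itgb5. These 10 genes were described here in macrophages and microglia of the mouse brain. They were chosen by name as integrin subunits known from myeloid cells, with earlier results of these data known, and they are 10 of the 18580 genes to which the transcripts of the 16 libraries were summed. All 10 were detected in macrophages and all 10 in at least 3 of the 8 microglia libraries, so the name of the group holds for both populations with the exceptions given for Itgal and Itga9.

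The mice were WT C57BL/6N or their CD163KO littermates (CD163tm1.1(KOMP)Vlcg), males and females, 12 weeks old at surgery. Each received α-syn MONO (murine monomeric α-synuclein, the control) or α-syn PFF (pre-formed fibrils of murine α-synuclein) into both striata and was killed 2 months later. CD45 high/CD11b+ cells (macrophages) and CD45 low or intermediate/CD11b+ cells (microglia) were sorted from the brains, and their RNA was sequenced by SMART-seq2, which copies full-length mRNA. There is 1 library for each of the 8 combinations of sex, genotype and injected α-syn in each population, 8 per population and 16 in all, and the sources do not say whether a library is 1 of the triplicates mentioned or a pool. Every mouse had surgery and α-syn, and no library came from uninjected or buffer-injected mice.

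The sort used an antibody to CD11b, the product of Itgam, so that both populations were chosen to carry it, and the macrophage gate can by the account of the study also hold neutrophils and NK cells. In the macrophage libraries the 12 markers of neutrophils summed to between 22110 and 134400 FPKM (a level corrected for transcript length and library size), against 1050 to 2857 in microglia. The 12 markers of border-associated macrophages summed to between 1957 and 5341 FPKM against 39.8 to 235, and the 11 measured markers of NK and T cells to between 47.9 and 236 against 0.23 to 5.65. The 12 homeostatic microglia markers summed to between 18930 and 45290 FPKM in microglia and to between 1202 and 2819 in macrophages. The 6 markers of choroid plexus, an epithelium outside the gate, summed to between 84.9 and 12620 FPKM in macrophages and between 263 and 2523 in microglia. Such sums follow the most abundant markers of a list. In the macrophage libraries the median marker was at 69 to 1270 FPKM for neutrophils and at 79.2 to 412 for border-associated macrophages. For choroid plexus it was at 0 to 116.5. RNA of several cell types was therefore present in the macrophage libraries, and in bulk samples fewer cells of a type and less RNA per cell cannot be told apart.

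Some libraries stood apart or went against their labels. Male WT PFF and male CD163KO MONO macrophages correlated with the other macrophage libraries at a median r of 0.721 and 0.785 of log2(FPKM + 1), against 0.921 to 0.936 for the other 6. The microglia of the same 2 combinations gave Cst3, an abundant microglial transcript, 261156 and 237697 FPKM, against 60306 to 73243 in the other 6, and their 12 homeostatic microglia markers summed to 45290 and 40280 FPKM, against 18930 to 21570. The study excluded male CD163KO MONO, and it was left out of the tests here but kept in the descriptions. The microglia library labelled female CD163KO MONO held 799 estimated counts of 4 Y-linked genes. Cd163 had at most 1 estimated count in the 4 CD163KO macrophage libraries and between 748 and 5275 in the 4 WT ones. In microglia it had between 5 and 23 counts in the CD163KO libraries and 0, 1, 46 and 101 in the WT ones, so that it does not check the genotype there. Libraries summed to between 8648751 and 21433841 estimated counts, and 3 counts correspond to between 0.14 and 0.347 CPM (counts corrected for library size).

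The genes for these β2 partners lie on chromosome 7 of the mouse genome, build GRCm38.p6: Itgal at chr7:127296139-127335137, Itgam at chr7:128062640-128118491 and Itgax at chr7:128129526-128150657, the last starting 11034 bases after the end of Itgam. Between the end of Itgal and the start of Itgam lie 727502 bases. Itgb2 is at chr10:77530329-77565708, Itgb1 at chr8:128685654-128733579, Itga4 at chr2:79255426-79333114, Itga6 at chr2:71786886-71858427, Itgav at chr2:83722303-83806917, Itga9 at chr9:118606709-118901003 and Itgb5 at chr16:33829665-33949338. RefSeq promoter sequences were at hand for 7 of the 10 genes. The 250 bases before the start that the RefSeq promoter table uses are shown for the neighbours Itgam and Itgax, which follow each other on the chromosome and of which only Itgam was called between the populations, and for Itga4 and Itgb5, 1 gene called higher and 1 called lower in macrophages. Capitals mark GAGGAA, a purine-rich core of sites for PU.1 (the myeloid transcription factor Spi1), on either strand, where it reads TTCCTC on the other. For Itgax the promoter table uses a start inside the gene as given above, so the last bases shown lie within the gene.
Itgam, chr7:128062390-128062639, plus strand: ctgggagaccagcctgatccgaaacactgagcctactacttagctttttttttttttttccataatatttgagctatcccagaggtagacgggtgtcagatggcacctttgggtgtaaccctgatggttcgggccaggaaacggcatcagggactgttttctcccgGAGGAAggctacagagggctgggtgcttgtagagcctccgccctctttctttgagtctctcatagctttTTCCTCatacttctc
Itgax, chr7:128129300-128129549, plus strand: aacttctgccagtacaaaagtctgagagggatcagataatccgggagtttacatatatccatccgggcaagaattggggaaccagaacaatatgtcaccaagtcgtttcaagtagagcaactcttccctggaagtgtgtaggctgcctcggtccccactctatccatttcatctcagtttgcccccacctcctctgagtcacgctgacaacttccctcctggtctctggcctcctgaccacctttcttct
Itga4, chr2:79255176-79255425, plus strand: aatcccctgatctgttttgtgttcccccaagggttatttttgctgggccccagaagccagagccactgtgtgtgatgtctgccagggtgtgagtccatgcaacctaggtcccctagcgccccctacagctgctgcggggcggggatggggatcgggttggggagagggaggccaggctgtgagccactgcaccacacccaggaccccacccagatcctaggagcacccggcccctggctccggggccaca
Itgb5, chr16:33829415-33829664, plus strand: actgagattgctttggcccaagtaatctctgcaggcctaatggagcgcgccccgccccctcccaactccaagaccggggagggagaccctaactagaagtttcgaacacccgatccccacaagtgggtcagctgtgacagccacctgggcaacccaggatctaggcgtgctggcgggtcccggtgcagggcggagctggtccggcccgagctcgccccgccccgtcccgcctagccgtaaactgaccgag
The Itgam stretch holds the motif at 84 and 15 bases before the start, and the other 3 stretches shown hold none. Of the 7 members with a promoter entry, 3 hold it (Itgam, Itgav and Itgb1). The stretch of Itgav lies wholly inside the gene as given above, since the promoter table uses a start 2094 bases after that of the gene, and so does that of Itga9, which holds no motif, with a start 104983 bases after. Of all 32851 promoter entries 7639 hold the motif, which is 23.3%.

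Itgb2, whose product is required for all β2 integrins, was the member with the highest median FPKM in macrophages and came after Itgb5 in microglia. In macrophages it ranged from 56.2 to 382 FPKM with a median of 105, and in microglia from 79.1 to 253 with a median of 226. The ranges overlapped, and the highest macrophage values, 382 and 330, came from the male WT PFF and male CD163KO MONO libraries that stood apart.

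Itgam ranged from 5.98 to 99.2 FPKM in macrophages, with a median of 16.6, and from 53.1 to 185 in microglia, with a median of 168. Of the 8 combinations, 6 had more Itgam in microglia. In the other two, male WT PFF and male CD163KO MONO, macrophages had 67.8 and 99.2 FPKM against 53.1 and 69.4 in microglia. After scaling by TMM, which estimates from the bulk of the genes how far a library's composition dilutes a gene, microglia were higher in all 8. With library totals alone, the edgeR test described below called 5700 of 12823 genes lower in macrophages and 598 higher. Counts of combinations by FPKM, here and for the other members, have no share of all genes beside them.

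Itgax, a subunit found on dendritic cells and on responding microglia, was low in both populations. It ranged from 3.72 to 10.7 FPKM in macrophages, with a median of 5.25, and from 0.73 to 16 in microglia, with a median of 4.26. The microglial values were the more scattered: the highest, 16, came from female CD163KO PFF and the lowest, 0.73, from male WT MONO.

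Itgal was present in every macrophage library, from 2.72 to 40.4 FPKM with a median of 7.27. In microglia it was listed at 0 in 5 of 8 libraries, and the remaining 3 had 0.02, 0.1 and 0.53 FPKM. These are 1.58 estimated counts in male WT PFF, 9.67 in male CD163KO MONO and 44 in female WT PFF, against between 304 and 3969 counts in the macrophage libraries. A count of 0 allows up to 3 counts in a library. The populations did not overlap.

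The 3 α partners of Itgb2 among the members were therefore mixed in different proportions. Itgad, an α subunit that is not a member, is left out of these shares. It had at most 0.25 FPKM in macrophages and 0.32 in microglia. In macrophages Itgam made up between 48.2% and 70.5% of the summed FPKM of the 3 genes, Itgal between 20.5% and 28.7% and Itgax between 4.92% and 30%. In microglia Itgam made up between 91.3% and 99.6%, Itgax between 0.393% and 8.67% and Itgal at most 0.305%.

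**Figure D1:**
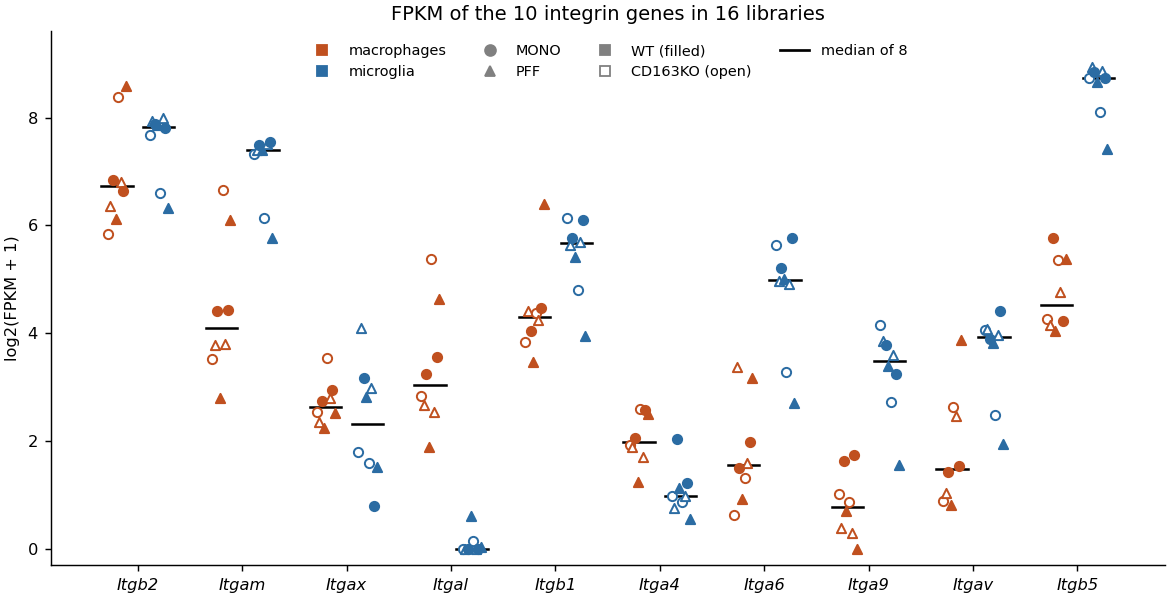
Each point is 1 library and the y axis gives log2(FPKM + 1), with macrophages in orange and microglia in blue, α-syn MONO as circles and PFF as triangles, WT filled and CD163KO open, and black lines for the median of 8 libraries. Itgb5 and Itgal are the genes whose populations do not overlap, with medians of 22.2 and 423 FPKM for Itgb5 and of 7.27 and 0 for Itgal in macrophages and microglia.

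**Figure D2:**
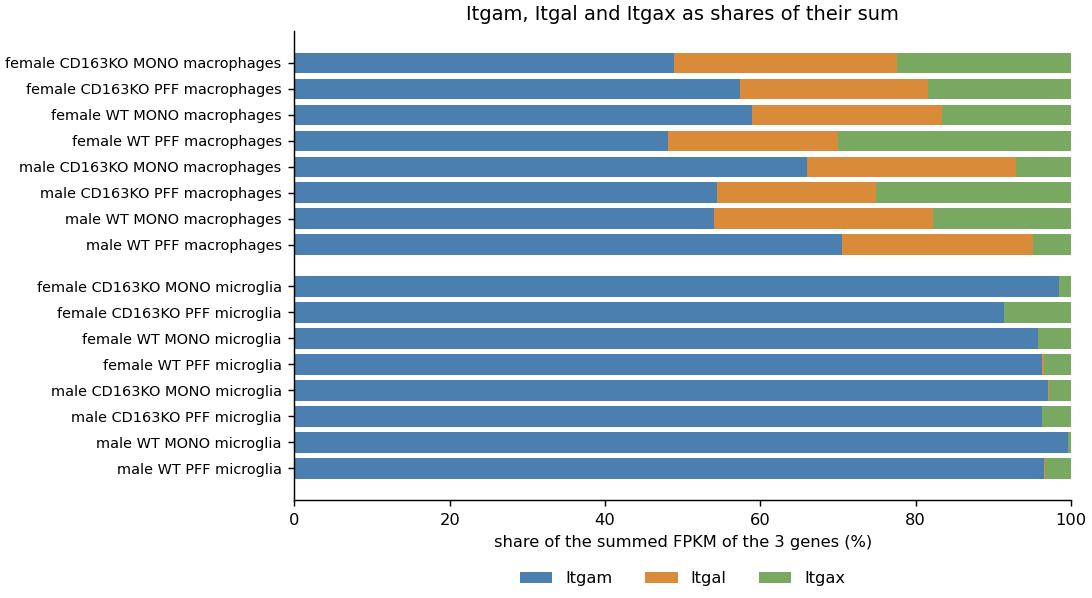
Each bar is 1 library and is divided by the share, in percent, that Itgam, Itgal and Itgax take of their summed FPKM. The Itgal part is between 20.5% and 28.7% in the 8 macrophage libraries and at most 0.305% in the 8 microglia libraries.

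Itgb1, the common β subunit of matrix receptors, ranged from 10 to 83.3 FPKM in macrophages, with a median of 18.8, and from 14.3 to 69.3 in microglia, with a median of 50. The macrophage value of 83.3 came from male WT PFF, and the other 7 macrophage libraries had at most 21.2.

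Itga4, whose pairs with β1 and β7 bind VCAM-1 and MAdCAM-1 during entry into tissue, ranged from 1.36 to 5.06 FPKM in macrophages and from 0.47 to 3.1 in microglia, with medians of 2.98 and 0.97. Macrophages were higher in 8 of 8 combinations, although the ranges overlapped through the 3.1 FPKM of female WT MONO microglia.

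Itga6, a laminin receptor with β1, ranged from 0.55 to 9.39 FPKM in macrophages and from 5.48 to 53.3 in microglia, with medians of 1.92 and 30.7. Only male WT PFF had more in macrophages, 8 against 5.48 FPKM, and this order turned with TMM scaling.

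Itga9 was the lowest member in macrophages, from 0 to 2.35 FPKM with a median of 0.72, and ranged from 1.95 to 16.8 FPKM in microglia with a median of 10.3. Microglia were higher in 8 of 8 combinations, by FPKM and by TMM-scaled FPKM. Male WT PFF macrophages had a count of 0, which allows up to 0.164 CPM.

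Itgav, the α subunit of vitronectin receptors and of integrins that activate latent TGF-β, ranged from 0.76 to 13.7 FPKM in macrophages and from 2.85 to 20.3 in microglia, with medians of 1.79 and 14.3. The macrophage value of 13.7 came from male WT PFF, and microglia were higher in 6 of 8 combinations.

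Itgb5, a partner of Itgav, ranged from 15.5 to 53.5 FPKM in macrophages and from 169 to 488 in microglia, with medians of 22.2 and 423. Every microglia library was above every macrophage library.

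By median FPKM, a scale per transcript length, the order in macrophages was Itgb2, Itgb5, Itgb1, Itgam, Itgal, Itgax, Itga4, Itga6, Itgav and Itga9. Of the neighbours in that order, Itgb2 and Itgb5 did not overlap over the 8 libraries, and all others did. In microglia the order was Itgb5, Itgb2, Itgam, Itgb1, Itga6, Itgav, Itga9, Itgax, Itga4 and Itgal, and all neighbours overlapped over the 8 libraries. Within libraries the microglial order was steadier than these ranges: each of Itgb5, Itgb2, Itgam, Itgb1 and Itga6 was above the next gene in 8 of 8 libraries.

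The first comparison asked how the members differed between macrophages and microglia. Of the 10 members, 2 were called higher in macrophages (Itgal and Itga4), 3 lower (Itgb5, Itga6 and Itgam) and 5 were not called. The test was edgeR's quasi-likelihood test on 14 libraries with the 7 combinations as a block, 6 residual degrees of freedom and a Benjamini-Hochberg adjusted p of at most 0.05 over 12823 genes. Over all genes tested 2564 were called, or 20.0%, with 12.6% higher and 7.4% lower in macrophages. The 10 members had a median log2 fold change of -0.51, and all genes tested one of -0.32. The 5 calls among 10 members are read beside that 20.0%, and the share itself was not tested. The FPKM ranges of the 2 populations, all 16 libraries included, were apart for 2 of 10 members (Itgal and Itgb5) and for 6.82% of all genes tested.

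Itgb5 was 6.11-fold lower in macrophages, with a log2 fold change of -2.61 (SE 0.313, edgeR adjusted p = 0.000163), and lower in 8 of 8 combinations. Its log2 fold change was -4.03 with library totals in place of TMM and -3.94 with limma on log2(FPKM + 1), so its size depended on the scaling. Itga6 was 4.58-fold lower, with a log2 fold change of -2.20 (SE 0.471, edgeR adjusted p = 0.00679). Its log2 fold change was -3.76 with library totals and -3.00 with limma. Itgam was 3.46-fold lower, with a log2 fold change of -1.79 (SE 0.199, edgeR adjusted p = 9.62e-05). Its log2 fold change was -3.33 with library totals and -3.08 with limma. Both populations had been sorted for its product, at a purity above 90%, and which cells carry the difference was not tested. In macrophages the neutrophil markers, of which 11 of 12 were called higher there and 1 lower, and the lists of border-associated macrophages, NK and T cells and homeostatic microglia move with the population, and their part in these differences was not tested.

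Itga4 was 7.21-fold higher in macrophages, with a log2 fold change of 2.85 (SE 0.411, edgeR adjusted p = 0.000549). With library totals in place of TMM it was 1.44 and not called (edgeR adjusted p = 0.0894). With limma on log2(FPKM + 1) it was 0.89 (limma adjusted p = 0.0335). For Itgal edgeR gave a log2 fold change of 10.19 (SE 1.22, adjusted p = 0.000161), but this size rests on the microglia libraries at 0 and is not a bound. Pooled over the 7 tested libraries, Itgal had 5509 counts in macrophages (46.4 CPM) and 45.6 in microglia (0.448 CPM), a ratio of 104, and 44 of the microglial counts came from female WT PFF. Leaving out that combination gave a log2 fold change of 11.53. The marker lists of NK and T cells (6 of 9 tested called higher in macrophages) and of monocytes (7 of 8) move with the population as well, and their part was not tested.

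Of the members not called, Itgax had a log2 fold change of 1.66 (SE 0.618, edgeR adjusted p = 0.0847), Itgav of -1.25 (SE 0.447, adjusted p = 0.0746) and Itga9 of -2.45 (SE 0.931, adjusted p = 0.0916). Without the male WT PFF combination all 3 passed, Itgax at 1.99, Itgav at -1.54 and Itga9 at -1.88 (edgeR adjusted p = 0.00862, 0.00415 and 0.00392), while 38.6% of all genes tested were then called. Without the block, Itgax passed with an adjusted p of 0.0455 and a log2 fold change of 1.55. The 5 called members kept their calls and directions without any 1 of the 7 combinations, among them female CD163KO MONO with its Y-linked reads.

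With TMM the β subunits Itgb2 and Itgb1 had the smallest differences, while with library totals and with limma on FPKM Itgax had, at 0.25 and 0.14. With TMM Itgb2 had a log2 fold change of 0.48 (SE 0.206, edgeR adjusted p = 0.127) and a 95% interval, not adjusted for the number of genes, of 0.03 to 0.94. Itgb1 had one of 0.22 (SE 0.231, edgeR adjusted p = 0.54) and an interval of -0.29 to 0.73. Their direction depended on the scaling. With library totals alone in place of TMM, the median over all genes fell to -1.94, 49.1% of the genes were called, Itgb1 turned to -1.35 (adjusted p = 0.0473), Itgb2 turned to -1.03 (adjusted p = 0.0615) and Itga4 was 1.44 (adjusted p = 0.0894). Relative to the median of all genes, all 10 members kept their sign under both scalings. Itgal, with its few microglial counts, moved from 10.51 to 11.64. Itgb1 was 0.54 above it with TMM and 0.59 with totals, Itgb2 0.81 and 0.91, Itga4 3.17 and 3.38, Itgam -1.47 and -1.39, and Itgb5 -2.29 and -2.10.

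**Figure D3:**
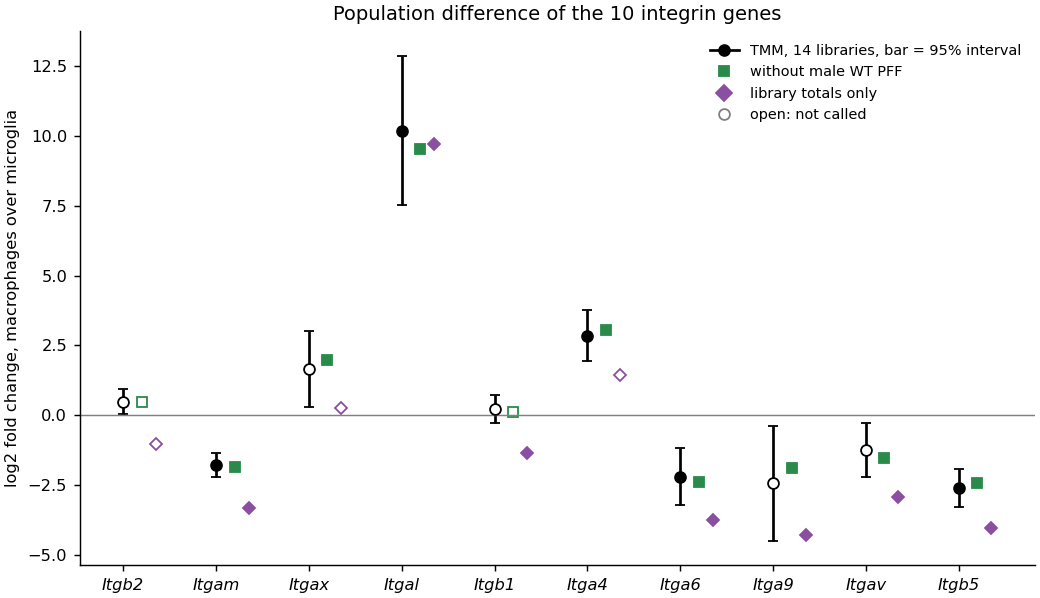
The y axis gives the log2 fold change of macrophages over microglia for each member. Black circles are the edgeR values with TMM on 14 libraries and bars their 95% intervals, not adjusted for the number of genes, green squares leave out male WT PFF, purple diamonds use library totals, and open symbols were not called. Itgal, Itga4, Itgam, Itga6 and Itgb5 are called with TMM, and the values with totals lie lower for every gene.

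A ratio of the FPKM of 2 members within a library does not depend on how the library was scaled. In all, 7 such ratios of an α to a β subunit that it is known to pair with were compared between the 7 matched pairs of libraries, a choice made after the data had been seen. The test was a two-sided exact permutation test that flips the sign of each pair's difference, where 0.0156 is the smallest p that 7 pairs allow, adjusted over the 7 ratios. Itgam, Itgal, Itga4 and Itga6 were already called between these same libraries, so the p-values of their ratios are no separate support. No share of other gene pairs stands beside the ratios.

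The Itgam to Itgb2 ratio ranged from 0.0872 to 0.208 in macrophages and from 0.671 to 0.832 in microglia. All 7 pairs were lower in macrophages, with a mean difference of -0.582 (exact permutation p = 0.0156, adjusted 0.0182). With male CD163KO MONO the macrophage range reached 0.3 and the populations still did not overlap, also in the libraries that stood apart. The Itgal to Itgb2 ratio ranged from 0.0397 to 0.109 in macrophages and was at most 0.0023 in microglia (exact permutation p = 0.0156, adjusted 0.0182).

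The Itga6 to Itgb1 ratio was lower in macrophages in 7 of 7 pairs, with medians of 0.113 and 0.675, and the Itga9 to Itgb1 ratio in 7 of 7 as well, with medians of 0.062 and 0.226. The Itga4 to Itgb1 ratio was higher in macrophages in 7 of 7 pairs, with medians of 0.136 and 0.0196, and the Itgav to Itgb5 ratio in 7 of 7, with medians of 0.0628 and 0.0326. Each of these 4 had an exact permutation p of 0.0156, adjusted 0.0182. The Itgax to Itgb2 ratio was higher in macrophages in 5 of 7 pairs, with a mean difference of 0.026, and did not pass (exact permutation p = 0.0781). The Itgav to Itgb5 ratio of 0.339 in male WT PFF macrophages was far above the others.

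**Figure D4:**
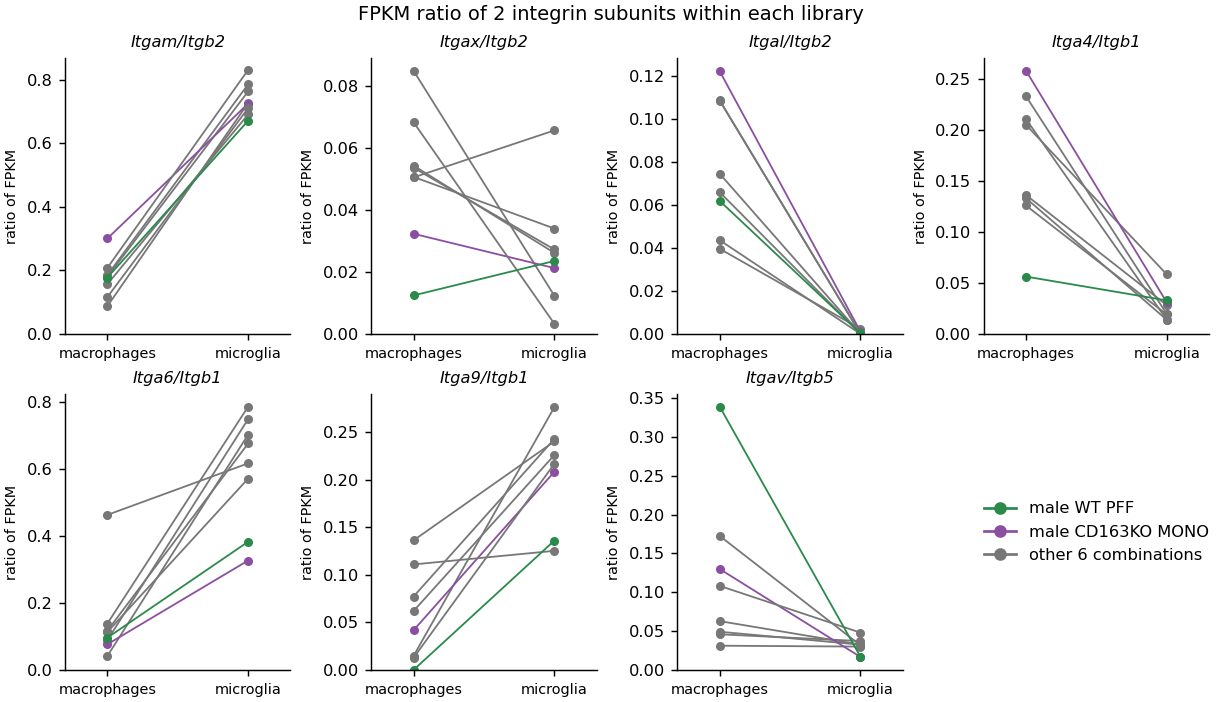
Each panel gives the FPKM ratio of an α to a β subunit, and each line joins the macrophage and the microglia library of 1 combination, with the combinations that stood apart in green (male WT PFF) and purple (male CD163KO MONO). The Itgam to Itgb2 lines all rise from macrophages to microglia, from at most 0.3 to at least 0.671, and the Itgax to Itgb2 lines cross.

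The next comparisons asked whether α-syn PFF changed the members relative to α-syn MONO, with sex, genotype and treatment in the model, 7 libraries per population and 3 residual degrees of freedom. No member was called in macrophages (0 of 10) or in microglia (0 of 9 tested, since Itgal had too few counts), and 0.0% of all genes tested were called in either population. By edgeR 125 of 11070 genes in macrophages and 739 of 11740 in microglia had an unadjusted p under 0.05, and DESeq2 called 5 and 29 genes, with no member among them.

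In macrophages the largest log2 fold changes of PFF over MONO were 1.42 for Itga6 (SE 0.918) and -1.82 for Itga9 (SE 1.81), both with an edgeR adjusted p of 1. Itga9 had 0.82, 1.02, 2.11 and 2.35 FPKM in the MONO libraries and 0, 0.23, 0.3 and 0.62 in the PFF libraries, so the groups did not overlap in FPKM. After TMM scaling they did, with 0.566 to 2.71 for MONO and 0 to 1.63 for PFF. The FPKM ranges of MONO and PFF macrophages were apart for 1 of 10 members and for 3.99% of all genes tested. After TMM scaling they were apart for 1 of 10 as well, which was Itgb1, and for 2.1% of all genes. The Itga9 values rest on between 0 and 234 counts. Summed over the 12 neutrophil markers, the same libraries had between 82120 and 120800 FPKM with MONO and between 22110 and 134400 with PFF, and the part of this in the Itga9 values was not tested.

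Itgb2 had a log2 fold change of 0.72 (SE 0.383) in PFF macrophages and Itgb1 one of 0.64 (SE 0.361). Itgb2 was higher with PFF in 2 of 4 matched pairs of sex and genotype by FPKM and in 4 of 4 by TMM-scaled FPKM, as was Itgb1, so that such counts turned on the scaling and are not read for the other members. TMM-scaled Itgb1 lay between 13.54 and 24.95 with MONO and between 26.25 and 57.5 with PFF, while its FPKM ranges overlapped. Neither β subunit was called (edgeR adjusted p = 1 for both), and the pairs of the males contain the 2 libraries that stood apart. Their intervals, -0.18 to 1.61 for Itgb2 and -0.20 to 1.49 for Itgb1, leave room for differences of either direction.

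In microglia the largest value was that of Itgax, with a log2 fold change of 2.01 (SE 0.781, edgeR adjusted p = 0.76) and an unadjusted 95% interval of 0.25 to 3.78. With PFF Itgax had 1.86, 6.02, 6.89 and 16 FPKM, and with MONO 0.73, 2.03, 2.49 and 7.97, so the groups overlapped. In libraries labelled female it was 7.97 with MONO and 6.02 with PFF in WT, and 2.49 and 16 in CD163KO. In males it was 0.73 with MONO and 1.86 with PFF in WT, and 2.03 and 6.89 in CD163KO. The value of 2.49 came from the microglia library labelled female CD163KO MONO, which held 799 counts of Y-linked genes. A difference between the sexes was not tested. Itga6 had a log2 fold change of -0.63 (SE 0.288) and Itgb1 of -0.31 (SE 0.298) in microglia. Itgam had a log2 fold change of 0.16 (SE 0.373), Itgb2 of 0.34 (SE 0.37) and Itgb5 of 0.30 (SE 0.467), all with an edgeR adjusted p of at least 0.76. The FPKM ranges were apart for 0 of 10 members and for 0.903% of all genes tested. After TMM scaling they were apart for 1 of 10 members, Itgb2, with 112.1 to 130.3 for MONO and 139.5 to 171.5 for PFF, and for 2.67% of all genes.

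CD163KO was compared with WT in the same models. Cd163 itself was the only gene called in macrophages (log2 fold change -11.34, SE 0.821, edgeR adjusted p = 0.0162), which is 0.00903% of the genes tested. Without any of 6 of the 7 libraries no gene was called, Cd163 included, and without male WT PFF 5 genes were. No gene was called in microglia (0.0%), where 141 had an unadjusted p under 0.05 by edgeR and DESeq2 called 3. In macrophages the 10 members had log2 fold changes between -0.35 (Itga9, SE 1.9) and 0.46 (Itgax, SE 0.631), with an edgeR adjusted p of 1 for each. Itgam had one of -0.19 (SE 0.401), Itgb2 of -0.22 (SE 0.359) and Itgal of -0.04 (SE 0.421). The 95% interval of Itgal, -1.02 to 0.95, covers differences up to about the study's threshold of 1 on the log2 scale in each direction.

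In microglia the 9 tested members had log2 fold changes between -1.05 (Itga4, SE 0.604) and 0.38 (Itga9, SE 0.278). Itga4 in microglia had 0.47, 1.18, 1.33 and 3.1 FPKM in WT and 0.68, 0.83, 0.97 and 0.97 in CD163KO, so that the groups overlapped and the value of 3.1 in female WT MONO was the highest. FPKM ranges of the genotypes were apart for 0 of 10 members in both populations, and for 0.605% of all genes tested in macrophages and 0.486% in microglia. After TMM scaling it was again 0 of 10 members in both, and 1.61% of all genes in each. Genotype in microglia rests on labels that Cd163 could not check.

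**Figure D5:**
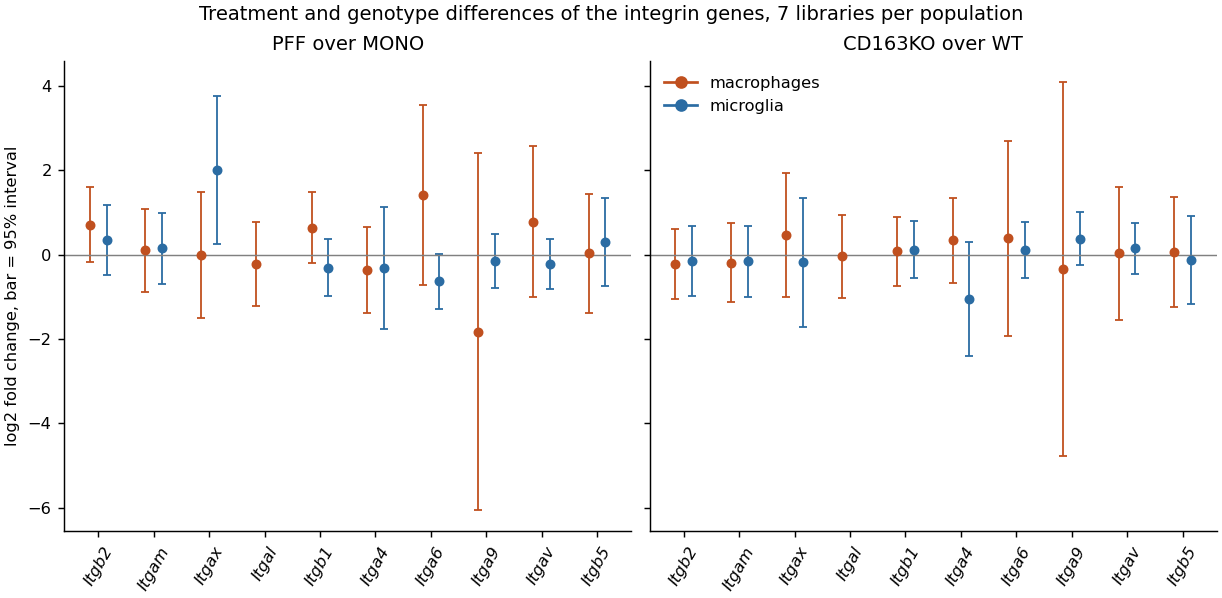
The y axis gives the log2 fold change of PFF over MONO (left) and of CD163KO over WT (right) for each member in macrophages (orange) and microglia (blue), with bars for the 95% interval, not adjusted for the number of genes. No value was called, and the intervals are widest for Itga9 in macrophages, from -6.06 to 2.41 for PFF over MONO.

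Whether the 2 populations differed in their response was tested by the interaction of population with treatment and with genotype. Neither called a member or any other gene (0.0% for treatment and 0.0% for genotype, of 12823 genes), with 120 and 86 genes at an unadjusted p under 0.05 by edgeR and 30 and 32 called by DESeq2. Itga6 had an interaction of 1.96 with treatment on the log2 scale (SE 0.825, edgeR adjusted p = 1), in a joint fit of both populations, whose values differ slightly from the separate fits above. Itgb1 had one of 0.94 (SE 0.458) and Itgax of -2.31 (SE 1.26), neither called. The value for Itgal, -5.76, rests on microglia libraries at 0 and is not interpretable as a size.

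Other integrin subunits were compared as a list of 16 genes, of which 11 had enough counts. Of these, 2 were called higher in macrophages, 1 was lower and 8 were not called, with a median log2 fold change of -0.76. Over all genes tested 12.6% were called higher and 7.4% lower, with a median of -0.32, and the list was not tested against that. Itgb7, which pairs with Itga4, ranged from 7.94 to 123 FPKM in macrophages and from 0 to 0.48 in microglia (log2 fold change 9.36, SE 0.924, edgeR adjusted p = 4.43e-05). As for Itgal, its size depends on microglia libraries with few counts, at most 23 each. Itgb3, the β subunit of the vitronectin receptor with Itgav, ranged from 0 to 0.84 FPKM in macrophages and from 3.88 to 16 in microglia (log2 fold change -4.20, SE 0.946, edgeR adjusted p = 0.00884). The third call was Itga1, a collagen receptor subunit, at a median of 0.095 FPKM in macrophages.

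Of 48 activators and adaptors of integrins, 47 were tested, 11 were called higher in macrophages and 3 lower, with a median log2 fold change of 0.09, beside 12.6% higher, 7.4% lower and a median of -0.32 over all genes. Vav3, a guanine nucleotide exchange factor, had a value of 7.70 (SE 1.24, edgeR adjusted p = 0.00113), whose size rests on at most 6 counts in a microglia library. Rasgrp2, which activates Rap1 upstream of talin, had a log2 fold change of 6.06, Cytip, a regulator of cytohesin, one of 4.89 and Fgr, a Src family kinase acting downstream of β2 integrins, one of 4.58 (edgeR adjusted p = 0.024, 0.000173 and 0.000449). Lower in macrophages were Apbb1ip (RIAM, a Rap1 effector that recruits talin) at -1.94, Cd9, a tetraspanin, at -1.56 and Vav1 at -1.26 (edgeR adjusted p = 0.011, 0.000708 and 0.00102). Vav1 and Vav3 therefore lay in opposite directions, Vav1 with medians of 15.4 FPKM in macrophages and 109 in microglia and Vav3 with 2.28 and 0.005.

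Of 30 ligands 21 were tested, 6 were called higher in macrophages and 4 lower, with a median log2 fold change of 0.47, beside the same 12.6%, 7.4% and -0.32 over all genes. Higher were Fn1 (fibronectin, also a monocyte marker of the lists used) at 8.32, C3 (complement, whose fragment iC3b is bound by the product of Itgam with that of Itgb2) at 5.09, Vcam1 (bound by α4β1) at 4.38 and Thbs1 (thrombospondin) at 3.68. Their edgeR adjusted p were 0.000447, 0.00415, 0.00029 and 0.00698, and the size for Fn1 rests on microglia libraries with a median of 0.045 FPKM. Lower were Jam3, Jam2 and F11r, junctional adhesion molecules bound by leukocyte integrins, at -4.19, -3.02 and -2.15, and Icam1, the main ligand of LFA-1, at -2.44 (edgeR adjusted p = 0.0371, 0.0133, 0.000189 and 0.0469). Icam1 had a median of 80.6 FPKM in microglia and 6.02 in macrophages. No gene of these 3 lists was called for treatment, genotype or an interaction.

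The FPKM of a member was also split by RSEM among its transcripts. For 5 members, Itgax, Itgb2, Itga4, Itgav and Itgb1, 1 transcript was listed. Itgb5 went to its longer transcript, of 3304 bases, by at least 97.7% in every library. Itga6 has transcripts of 6018 and 5888 bases. In 6 macrophage libraries all of it was assigned to the longer one, and in male WT PFF and male CD163KO MONO macrophages all of it to the shorter one, from 861 and 166 counts. In microglia the longer one took at least 86.4%. Itga9 went mainly to the transcript of 5180 bases and less to that of 7001 bases in microglia, where the shorter one took between 70% and 100%. The 2 Itgam transcripts differ by 3 bases in length and the 4 Itgal transcripts by at most 6, and their shares varied widely between libraries (27.2% to 86.1% for the shorter Itgam transcript in microglia), so no difference between them is read here.

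Over the 16 libraries, after taking out the mean of each population, Itgam and Itgb2 varied together with a Pearson r of 0.954 of log2(FPKM + 1), Itgb2 and Itgav with 0.923, and Itgav and Itgb1 with 0.896. Libraries share their depth and composition, and these values were lower over the 12 libraries without the combinations that stood apart: 0.692, 0.68 and 0.532. Itgam and Itgal held theirs, with 0.858 and 0.837. Among 4692 genes with a mean of at least 5 FPKM in each population, the most like Itgam were Numb and Dcaf12 (r of 0.98 and 0.976, and 0.933 and 0.873 over the 12), and the most like Itgb2 were Prpf4b and Sumf1 (0.972 each, and 0.688 and 0.72). For Itgal they were Stxbp2 and Vsir (0.943 and 0.897, and 0.773 and 0.872 over the 12), for Itga4 Lilrb4a and Rnase6 (0.878 and 0.863, and 0.95 and 0.873) and for Itgax Aldh3b1 and Spsb2 (0.876 and 0.826, and 0.917 and 0.779). For Itgb5 they were Mrpl22 and Brwd1 (0.912 and 0.9, and 0.814 and 0.871 over the 12), for Itgav Tm9sf3 and Zfp36l2 (0.973 and 0.944, and 0.885 and 0.716) and for Itgb1 Uba2 and Cfap20 (0.966 each, and 0.832 and 0.689). For Itga6 they were Tbk1 and Slc7a7 (0.904 and 0.895, and 0.716 and 0.679 over the 12), and for Itga9 Elob and Psmd7 (0.896 each, and 0.833 and 0.7). These are descriptions without a test.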

How the data were processed

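Sorted populations were profiled by SMART-seq2, 1 table per combination and population. The authors mapped reads with Bowtie2 to mm10 and deposited estimated counts from RSEM (expected counts, not normalized), and the authors also deposited RSEM FPKM, which scale for transcript length and library total. Versions are not given in the sources used here. Transcripts were matched to RefSeq symbols (GRCm38.p6) and summed, and unlisted ones were taken as 0. At most 0.128% of a library's counts had no symbol. Counts were rounded and tested with edgeR 4.0.16 (glmQLFit, TMM, at least 10 counts in at least 3 libraries, adjusted p of at most 0.05) in R 4.3.3, after a check on simulated counts. Alternatives were DESeq2 1.42.0, its size factors, library totals, no filter, limma 3.58.1 on log2(FPKM + 1), the study's threshold of 1 on the log2 scale, male CD163KO MONO included, no replicate block and leaving out each combination or library. Ratios used scipy 1.17.1 in Python 3.11.15. The members and gene lists were chosen with earlier results of these data known. Named are all members, other subunits with a median of at least 10 FPKM, up to 4 called genes per list and direction, and the 2 genes most like each member. Itga1, below that level, was named after its values were seen. Libraries of other combinations serve as replicates, and batches 1 and 2 of the study are not labelled per library. Numbers of mice per group were 4 to 7, with 200000 to 500000 microglia and 10000 to 30000 macrophages sorted at a purity above 90%.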

Additional observations from a re-analysis of the deposited data

Results flagged for a closer look

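In 34 groups of 8 libraries (FPKM of each member and each FPKM ratio, per population), 9 had 1 library whose gap to the nearest other exceeded Dixon's 95% limit of 0.526 of the range. For 8 independent normal values this limit would flag about 1 in 20 groups. The groups here share libraries and genes and need not be normal, so the share expected by chance is not known. In macrophages, male WT PFF was high in Itgb1, at 83.3 FPKM against 10 to 21.2 in the others, in Itgav, at 13.7 FPKM against 0.76 to 5.17, and in the Itgav to Itgb5 ratio, at 0.339 against 0.0312 to 0.173. Male CD163KO MONO was high in Itgax, at 10.7 FPKM against 3.72 to 6.75. Female CD163KO PFF macrophages had an Itga6 to Itgb1 ratio of 0.462 against 0.0416 to 0.138, from 683 counts of Itga6.

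In microglia, female WT PFF was high in Itgal, at 0.53 FPKM against at most 0.1, and in the Itgal to Itgb2 ratio, at 0.0023 against at most 0.00105. Female WT MONO microglia were high in Itga4, at 3.1 FPKM against 0.47 to 1.33, and in the Itga4 to Itgb1 ratio, at 0.0583 against 0.0139 to 0.0328. The macrophage libraries of male WT PFF and male CD163KO MONO stand apart over all genes, and for the others no part of batch or cell mixture was tested.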

How the results depend on the processing

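Between macrophages and microglia the number of genes called was 2564 with edgeR, 4747 with DESeq2, 6298 with library totals, 6340 with limma on FPKM, and between 1814 and 4925 when 1 combination was left out, the highest without male WT PFF. For PFF against MONO in macrophages it was 0, with DESeq2 5, with library totals 1 and with limma 1. In microglia it was 0, with DESeq2 29, with library totals 2, with no filter 11, with limma 1, and between 0 and 1 when 1 library was left out. For CD163KO against WT in macrophages it was 1 (Cd163), with limma 4, and between 0 and 5 when 1 library was left out, 0 without any of 6 of the 7 and 5 without male WT PFF. In microglia it was 0, with DESeq2 3 and with no filter 19. The interaction with treatment gave 0, with DESeq2 30, and between 0 and 1 when 1 combination was left out. The interaction with genotype gave 0, with DESeq2 32, with library totals 3, and between 0 and 1 when 1 combination was left out. In each of the last ranges the value of 1 came without male WT PFF. The causes of these differences were not tested.

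Of the members, Itgb1 turned from 0.22 to -1.35 between the populations with library totals. Itga4 lost its call there, at 1.44. Itgav and Itga9 gained calls with DESeq2, library totals, no filter, limma and without male WT PFF, Itgav also without male CD163KO PFF, and Itgax with DESeq2, without the block and without male WT PFF. No paired analysis by replicate number was possible because the labels number no replicates, so the block is the combination. All 7 ratios kept their direction and side of the threshold with male CD163KO MONO and without any 1 combination. With TMM-scaled FPKM, 4 microglial medians moved by more than 1 SD: Itgam to 101.5, Itgb2 to 135, Itgb1 to 31 and Itgb5 to 269 FPKM. Itgal in microglia and Itga9 in macrophages had libraries with counts of 0, and the part of depth in this was not tested.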
